A study of Mus musculus with 97 samples.

Results

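Doxorubicin plus docetaxel (DD) was compared with vehicle in captured hippocampal regions of older mice that carry the human APOE3 allele in place of the mouse gene. The comparison used 16 of the 97 libraries of the study, 8 from DD-treated and 8 from vehicle-treated mice. It covered the 63 of 19962 measured genes whose median ratio to the negative probe was over 2 across those 16 libraries. DD mice received weekly doses of 3 mg/kg doxorubicin and 10 mg/kg docetaxel, split over 2 intraperitoneal injections a week for 2 weeks. Vehicle mice received a mixture of dimethyl sulfoxide and phosphate-buffered saline. Other groups were set beside this comparison: 8 APOE3 hippocampus libraries after DC (weekly doses of 3 mg/kg doxorubicin and 40 mg/kg cyclophosphamide), 8 APOE4 hippocampus libraries each after DD and vehicle, and APOE3 cortex libraries after DD (9) and vehicle (8). The test of DD against vehicle was fitted to all 6 hippocampus groups (48 libraries, APOE4 after DC included), so the other groups also set its estimate of the spread. All groups carry a human APOE allele and none carries the mouse one alone. The labels give neither an exact age nor a sex, and they do not tie a captured region to an animal, so some libraries may share a mouse and every p-value over libraries below is too small where they do.

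Doxorubicin intercalates into DNA and traps topoisomerase II, and docetaxel binds and stabilises microtubules. Both drugs are used together with other agents against breast cancer, and treated patients and rodents are studied for later cognitive change, for which the hippocampus, a region of learning and memory, is often examined. The assay was the GeoMx Whole Transcriptome Atlas, in which ultraviolet light releases the tags of hybridised probes from a chosen region of a section, here 8 µm thick. The tags are sequenced and counted. The negative probe matches no mouse transcript and measures background.

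Of the 63 genes, 1 passed the test of DD against vehicle over libraries, and none did with sums over runs of neighbouring wells or with the run as a random block. Ripply2, a transcriptional corepressor known from somite formation, where Ripply proteins bind T-box factors and recruit Groucho-type repressors, was 1.89-fold lower after DD (edgeR adjusted p = 0.00890 over libraries and 0.306 with counts summed over runs, and limma adjusted p = 0.0543 with the run as a random block). Mtch2, an insertase of the outer mitochondrial membrane that also recruits the cleaved form of the cell death protein Bid, had by far the highest counts and did not pass the test on its level. Its share of the counts was nevertheless lower after DD over libraries, though not over runs of neighbouring wells. The promoters of these genes are shown because the results turn on them. Each run covers 250 bases before to 50 bases after the start site used in the RefSeq promoter windows, on the plus strand of GRCm38.p6, at chr9:87015287-87015586 for Ripply2 and chr2:90846905-90847204 for Mtch2. That site is the first base of the annotated Ripply2 gene, and for Mtch2 it lies at 90847155, which is 65 bases after the first base of the annotated gene. Capitals mark matches to CCAAT or GGGCGG on either strand.
Ripply2: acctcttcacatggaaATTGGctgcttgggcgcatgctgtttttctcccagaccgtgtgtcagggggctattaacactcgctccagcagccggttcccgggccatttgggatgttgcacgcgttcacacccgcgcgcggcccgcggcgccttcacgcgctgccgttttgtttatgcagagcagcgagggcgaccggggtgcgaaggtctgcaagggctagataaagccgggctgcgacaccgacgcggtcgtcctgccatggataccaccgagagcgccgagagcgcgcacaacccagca
Mtch2: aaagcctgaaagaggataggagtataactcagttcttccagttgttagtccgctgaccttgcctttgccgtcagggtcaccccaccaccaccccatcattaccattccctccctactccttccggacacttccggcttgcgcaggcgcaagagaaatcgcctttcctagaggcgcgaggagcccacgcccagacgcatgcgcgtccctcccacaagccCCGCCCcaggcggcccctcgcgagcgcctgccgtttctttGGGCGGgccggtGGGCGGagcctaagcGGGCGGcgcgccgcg

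The Ripply2 window had 63.3% GC and 32 CpG dinucleotides, and the Mtch2 window 64.7% GC and 28 CpG, against medians of 52.7% and 7 over 32851 promoter windows. Ripply2 held 1 CCAAT match, at position -234 from the start site on the opposite strand, a motif that 37.4% of all windows contain. Mtch2 held 4 GGGCGG matches, at positions -32, 9, 21 and 36 from the start site of its window, a motif found in 35.7% of windows. TATAAA, the E-box CACGTG and AGGTGT, the core of the T-box half-site, were in neither window, and 13.6%, 7.15% and 13.7% of all windows held them. The 5 motifs were searched on both strands and do not overlap in these windows.

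Most of the panel lay at background in these libraries. The median gene stood at 0.859 times the negative probe, 2253 genes were over 1, and 63 were over 2. Just inside the limit were Apol10a, Ruvbl2, Ccdc71l and Pcsk1 at ratios of 2.17, 2.15, 2.08 and 2.02, and just outside it Actb, Glul, Calm2 and Tpt1 at 1.995, 1.985, 1.95 and 1.90. Total counts ran from 24246 to 47431 in DD and from 25314 to 36372 in vehicle libraries. The lowest value of 1 was held by 39.4% to 87.4% of genes in DD and by 60.6% to 90.1% in vehicle libraries. Much of each total is therefore this lowest value and not signal. A gene at 1 has a ratio under 1 in every library, because the negative probe was 1.07 or higher, so ratios such as 0.859 are not measured levels. The negative probe ranged from 1.10 to 1.87 in DD and from 1.07 to 1.41 in vehicle libraries. In 3 DD libraries (2, 4 and 6) it lay above every vehicle library, at 1.80, 1.85 and 1.87, and the other DD libraries reached at most 1.37. The ratio of the geometric means was 1.14 (two-sided exact permutation p = 0.157 over libraries and 0.143 over 4 runs of wells against 4). The labels name the tissue hippocampus, but markers of its fields could not check this. The list of excitatory neuron and field markers had a median ratio of 0.847, and its highest member was Cpne4 at 1.44, while the dentate granule cell factor Prox1 stood at 0.806.

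The summed counts of the 63 genes ran from 1266 to 3569 with a median of 2035 in DD libraries, and from 1215 to 5207 with a median of 3064.5 in vehicle libraries. The groups overlapped, and the ratio of geometric means was 0.739 (two-sided exact permutation p = 0.149 over libraries and 0.314 over runs). Mtch2 made up 45.4% ± 7.76 (SD, n = 8) of these counts in DD libraries and 56.8% ± 6.39 (SD, n = 8) in vehicle libraries. The difference of -11.4 percentage points had a two-sided exact permutation p of 0.00404 over libraries (0.0121 adjusted over 3 library measures). In 7 of 8 DD libraries the share lay under that of every vehicle library. Over 4 runs against 4, where the smallest possible value is 0.0286, the exact permutation p was 0.0857. Total counts averaged 34590 in DD and 30893 in vehicle libraries, and the 63 genes made up 6.14% ± 1.21 and 9.53% ± 3.32 of them (SD, n = 8 each). Fewer cells in a captured region, less RNA per cell and a higher background cannot be told apart from these counts, and none of them was tested.

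**Figure D1:**
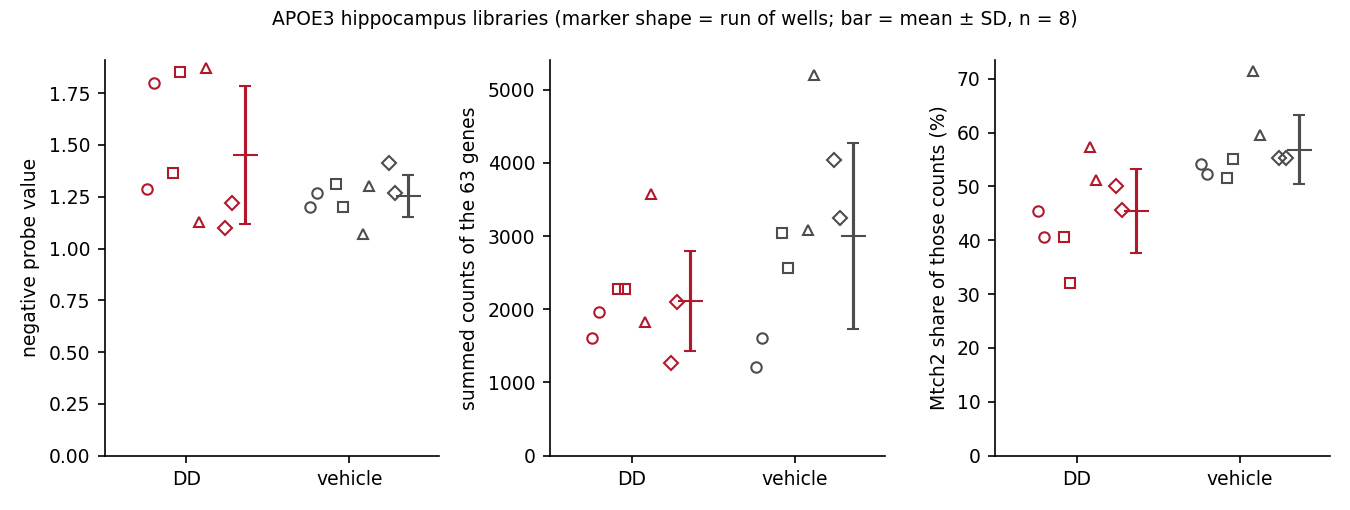
Negative probe value, summed counts of the 63 genes and Mtch2 share of those counts in percent for each library, DD left and vehicle right; marker shapes stand for runs of neighbouring wells, and bars for the mean ± SD of 8 libraries. Mtch2 shares average 45.4% in DD and 56.8% in vehicle libraries, and 3 DD libraries have negative probe values of 1.80 to 1.87.

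Ripply2, on chromosome 9 at 87015537 to 87020441 in GRCm38.p6, had counts with a lowest, median and highest value of 12, 26 and 50 in DD libraries, and of 13, 47 and 90 in vehicle libraries. Scaled by TMM to a common library size, its normalised count ran from 15.7 through a median of 26.8 to 34.3 in DD libraries and from 25.7 through 46.1 to 103 in vehicle libraries. The groups overlapped: 3 DD libraries lay below every vehicle library, 6 vehicle libraries lay above every DD library, and all 8 DD libraries lay below the vehicle mean. The means were 27.0 ± 6.85 after DD and 51.0 ± 23.9 with vehicle (SD, n = 8 each), and edgeR's quasi-likelihood test gave a log2 fold change of -0.92 (SE 0.23, adjusted p = 0.00890). This was 1.59% of the genes tested. As a share of the counts of the 63 genes, without TMM scaling, Ripply2 made up 1.20% ± 0.229 in DD and 1.61% ± 0.420 in vehicle libraries (SD, n = 8 each). The TMM factors averaged 0.960 ± 0.187 in DD and 0.712 ± 0.146 in vehicle libraries (SD, n = 8 each). The scaling therefore differed between the groups and widened the gap in Ripply2. The median over libraries of the ratio of Ripply2 to the negative probe was 18.6 in DD libraries and 38.1 in vehicle libraries.

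The run means of Ripply2 were 18.8, 24.5, 34.0 and 30.5 normalised counts in DD libraries and 32.6, 52.96, 81.6 and 37.0 in vehicle libraries, so the highest DD run lay above the lowest vehicle run. One vehicle library, number 5, had the highest value of 103 and also the lowest TMM factor, 0.416. Without it the log2 fold change was -0.72 (edgeR adjusted p = 0.0997). Without the 3 DD libraries of high negative probe it was -0.82 (adjusted p = 0.209), and with counts summed over runs -0.82 (adjusted p = 0.306). The part of background and of the lower summed counts in this difference was not tested. The related genes Ripply1 and Ripply3 lay at background, at 0.860 and 0.898 times the negative probe. The list of 19 measured genes of the Ripply and Tbx6 somite circuit held no other gene above the limit, and its median log2 fold change without a filter was -0.094.

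**Figure D2:**
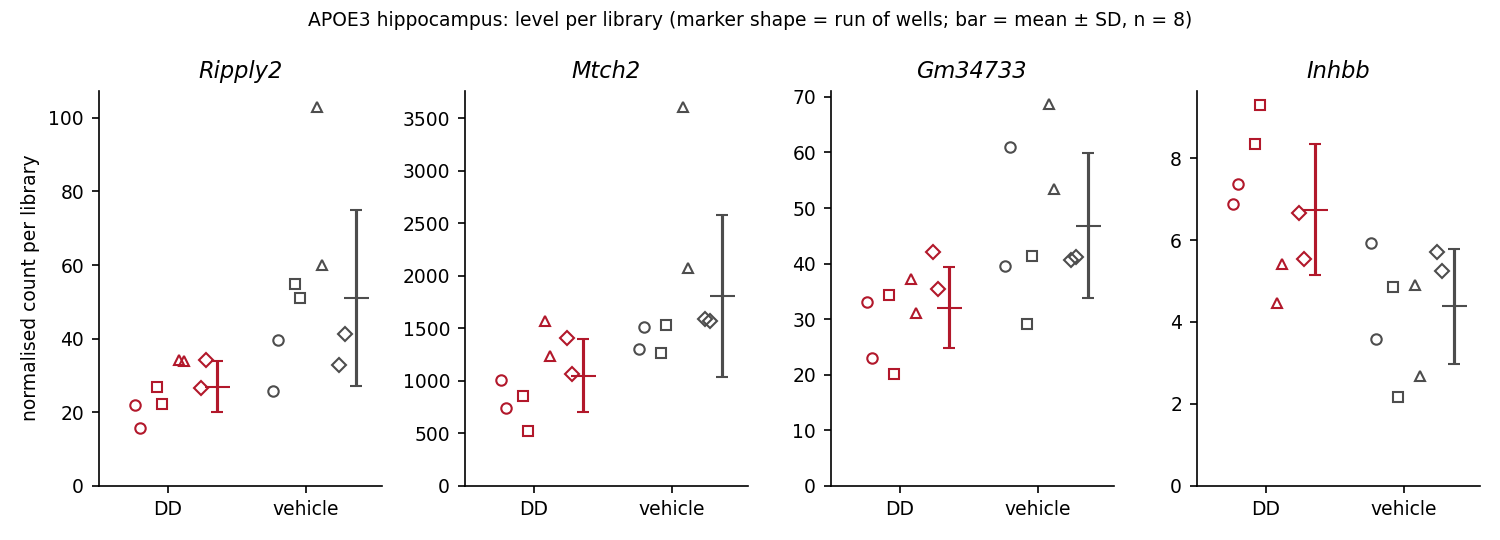
Normalised counts of Ripply2, Mtch2, Gm34733 and Inhbb in each of the 8 DD (left) and 8 vehicle (right) libraries; marker shapes stand for runs of neighbouring wells and bars for the mean ± SD. All 8 DD libraries lie below the vehicle mean for Ripply2, Mtch2 and Gm34733 and above it for Inhbb, and the groups overlap in each.

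Besides Ripply2, none of the 63 genes passed the adjusted threshold. An unadjusted p under 0.05 was reached by 5 genes, the others being Mtch2, Gm34733, Inhbb and Txlnb. The groups overlapped in every one of the 63 genes (0% not overlapping). By sign, 36 log2 fold changes lay above 0 and 27 below, with a median of 0.041 and a range from -0.92 to 0.66. The sign went with abundance. Most of the 18 genes over 10 times the negative probe lay below 0, and most of the 25 genes under 3 times it lay above 0. Splits by sign, here and in the groups of genes below, are therefore not read as changes of a function. The part of background and scaling in them was not tested. Tested over all 19962 genes without the limit on background, edgeR called 0 genes (0%), with a smallest adjusted p of 0.113. In that test 69 genes (0.346%) had an unadjusted p under 0.05, far under the share that chance alone gives at that threshold. Most genes lay at or near the lowest value of 1, so the test could call little and its 0 calls do not show an absence of change. Of the 63 genes, 30 had a median count of 5 or lower, so for many of them a difference of the size seen for Ripply2 was not readily detectable at this depth.

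**Figure D3:**
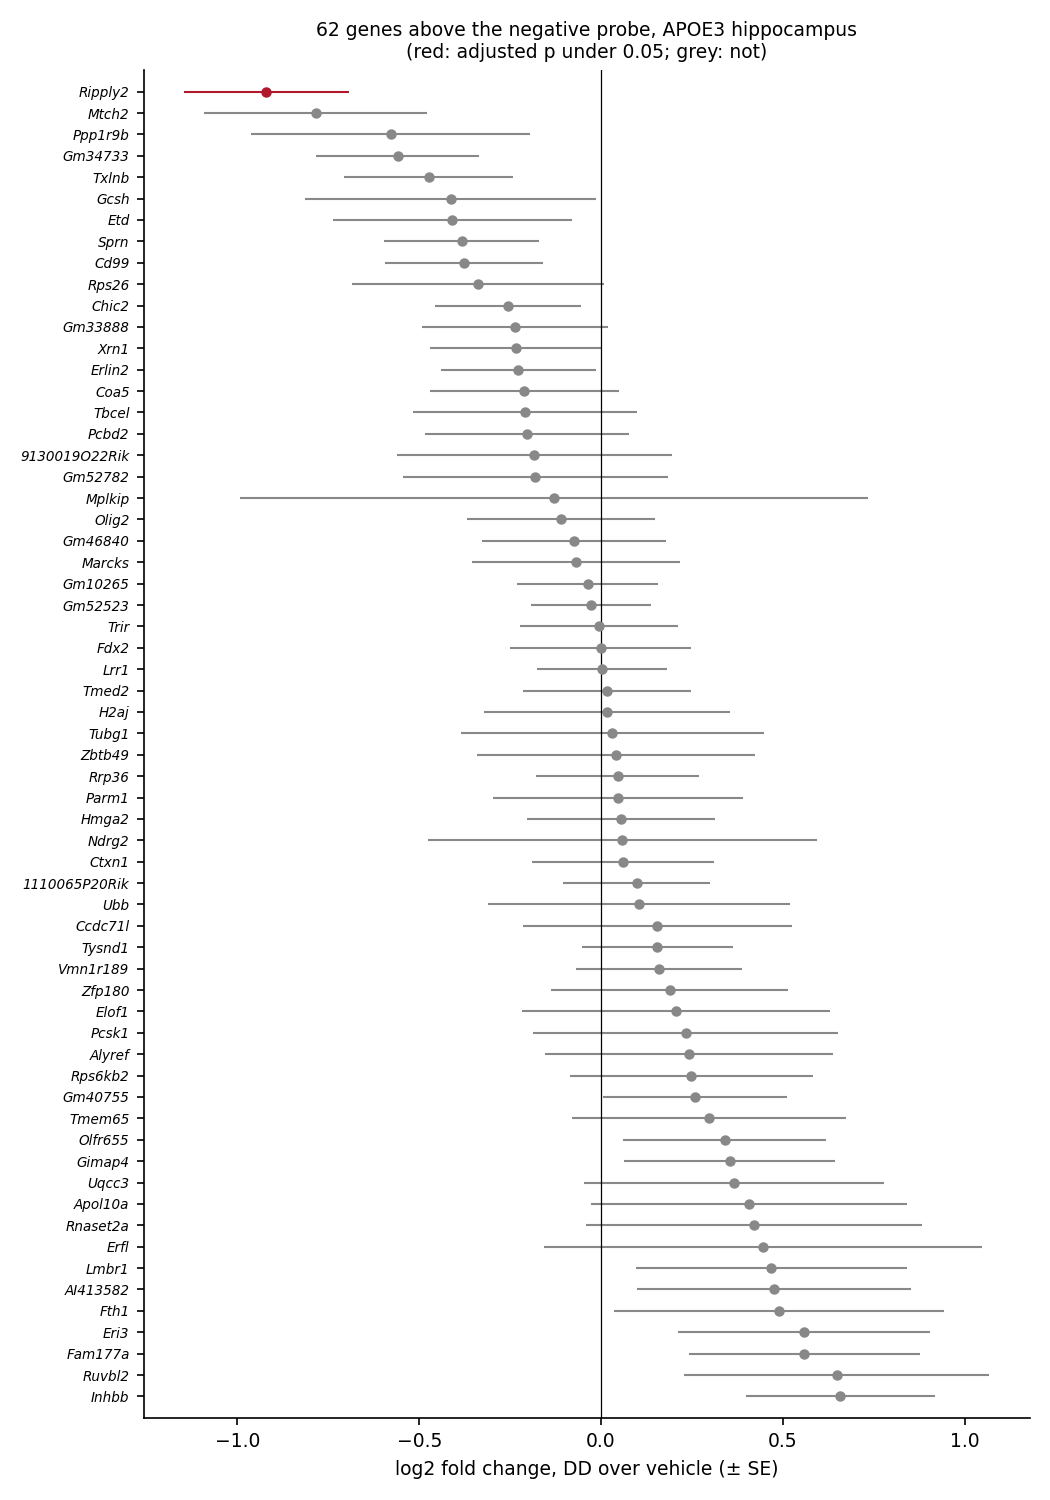
Log2 fold change, DD over vehicle, with its standard error for 62 of the 63 genes, ordered by size. Ripply2 at -0.92 is the only point past the adjusted threshold; Inhbb at 0.66 is the highest.

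Among 6 mitochondrial genes, 2 lay above 0 and 4 below, with none called. Mtch2, on chromosome 2 at 90847090 to 90866810, had counts of 635, 861.5 and 1827 (lowest, median and highest) in DD libraries, against 659, 1680 and 3104 in vehicle libraries. After TMM scaling, 6 of 8 DD libraries lay below every vehicle library. The normalised means were 1049 ± 347 and 1806 ± 769 (SD, n = 8 each), for a log2 fold change of -0.79 (SE 0.31, edgeR adjusted p = 0.330). The other mitochondrial genes lay between -0.41 and 0.36 in log2 fold change. They were Coa5, which helps assemble cytochrome c oxidase, the ferredoxin Fdx2, Tmem65 of the inner membrane, Gcsh of the glycine cleavage system and Uqcc3, an assembly factor of complex III.

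Of 9 genes of transcription and chromatin, Ripply2 was the 1 called, and 7 lay above 0 and 2 below. Hmga2, an architectural chromatin protein, stood at 44.0 times the negative probe. Its normalised count was 61.8 ± 19.3 after DD and 58.5 ± 10.98 with vehicle (SD, n = 8 each; log2 0.055, SE 0.26, edgeR adjusted p = 0.996). Ruvbl2, an ATPase of chromatin remodelling complexes, had a log2 value of 0.65 (SE 0.42, adjusted p = 0.797) from median counts of 4 after DD and 2.5 with vehicle. Olig2, the transcription factor of the oligodendrocyte lineage, had a log2 value of -0.11 (SE 0.26, adjusted p = 0.970). It was the only one of 20 myelin and oligodendrocyte genes above the limit.

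Of the 10 predicted or uncharacterised genes, 3 lay above 0 and 7 below, and none was called. Gm34733, on chromosome 16 at 89226811 to 89227103 and annotated as protein-coding, had counts of 19, 26.5 and 46 in DD libraries and 20, 40 and 80 in vehicle libraries. All 8 DD libraries lay below the vehicle mean, 2 of them below every vehicle library, and the log2 fold change was -0.56 (SE 0.22, edgeR adjusted p = 0.330). Gm33888, Gm46840, Gm10265 and Gm52523 stood at 141, 101, 77.7 and 39.7 times the negative probe. Their log2 fold changes of -0.24, -0.074, -0.037 and -0.028 were each smaller than their standard errors of 0.26, 0.25, 0.19 and 0.17. AI413582, at a median count of 3 in both groups, had a log2 value of 0.48 (SE 0.38, adjusted p = 0.797).

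The secretory, secreted and peroxisomal group had 6 genes, 4 above 0 and 2 below, and none was called. Inhbb, the beta-B subunit that forms activin B and inhibin B, had counts of 3, 6.5 and 13 in DD libraries and 2, 3.5 and 8 in vehicle libraries. After scaling, all 8 DD libraries lay above the vehicle mean and 5 above every vehicle library, at normalised means of 6.74 ± 1.601 and 4.38 ± 1.41 (SD, n = 8 each). Its log2 fold change of 0.66 was the highest of the 63 (SE 0.26, edgeR adjusted p = 0.449). Erlin2, which marks cholesterol-rich domains of the endoplasmic reticulum membrane, stood at -0.23 (SE 0.21) and Chic2, a palmitoylated vesicle protein, at -0.26 (SE 0.20). Tysnd1, a peroxisomal protease, stood at 0.16 (SE 0.21), and Pcsk1, a convertase of prohormones, at 0.23 (SE 0.42).

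Of 8 genes of RNA processing and translation, 5 lay above 0 and 3 below, with none called. Xrn1, the cytoplasmic 5′ to 3′ exoribonuclease, had a log2 value of -0.23 (SE 0.24, edgeR adjusted p = 0.856), and its normalised count averaged 36.2 ± 8.09 after DD and 42.4 ± 11.2 with vehicle (SD, n = 8 each). Eri3, of the ERI exonuclease family, had a log2 value of 0.56 (SE 0.35, adjusted p = 0.790), from median counts of 8 and 5 in DD and vehicle libraries. The ribosomal protein gene Rps26 stood at -0.34 (SE 0.35) at median counts of 3 and 4.5.

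Neuronal and glial proteins above background were 5, of which 2 lay above 0 and 3 below. Ctxn1, the neuronal membrane protein cortexin, had a median count of 18.5 in each group and a log2 value of 0.061 (SE 0.25, edgeR adjusted p = 0.996). Sprn, the prion-related glycoprotein Shadoo, stood at -0.38 (SE 0.21, adjusted p = 0.790) with 7 of 8 DD libraries below the vehicle mean. Ppp1r9b, the dendritic spine scaffold spinophilin, stood at -0.58 (SE 0.38, adjusted p = 0.797), but from median counts of 2.5 and 3.5, near the lowest value of 1. Marcks, an actin-regulating substrate of protein kinase C, stood at -0.068 (SE 0.29).

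In the remaining groups, no gene was called. Txlnb, a taxilin known from striated muscle, had counts of 5, 11 and 20 in DD and 3, 17 and 25 in vehicle libraries, and a log2 value of -0.47 (SE 0.23, edgeR adjusted p = 0.579). Of 3 immune-cell and apolipoprotein L genes, Cd99, a surface glycoprotein of leukocyte migration, stood at -0.38 (SE 0.22, adjusted p = 0.790), and Gimap4, a GTPase of lymphocytes, at 0.35 (SE 0.29, adjusted p = 0.797). The olfactory receptor Olfr655 stood at 0.34 (SE 0.28) and the vomeronasal receptor Vmn1r189 at 0.16 (SE 0.23). Lrr1, substrate receptor of a cullin ubiquitin ligase, stood at 44.5 times the negative probe and differed little between the groups (log2 0.0022, SE 0.18). The ferritin heavy chain Fth1 (0.49, SE 0.45), Fam177a (0.56, SE 0.32), Lmbr1, a membrane protein gene that holds a limb enhancer of Sonic hedgehog (0.47, SE 0.37), and Etd (-0.41, SE 0.33) did not pass. They were measured at low counts, with group medians from 2.5 for Fth1 to 7.5 for Etd, both in vehicle libraries.

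Genes of the pathways tied to these drugs and to APOE were mostly at background. The 20 gene lists examined held 417 different measured genes, of which 4 (Ripply2, Mtch2, Olig2 and Tubg1) were above the limit. In the edgeR test over all genes, which could call little, 0 of the 417 passed. Median ratios of the lists to the negative probe ran from 0.827 to 0.922, and list medians of the log2 fold change from -0.23 to 0.12. Of the 32 genes of the p53 and DNA damage response, 15 lay above 0 and 17 below, and the highest ratio was 1.57, for Pmaip1, the BH3-only protein Noxa. Tubulins and microtubule proteins, which include the target of docetaxel, had 11 above and 12 below 0 among 23 measured, with gamma-tubulin gene Tubg1 the only one above the limit (log2 0.032, SE 0.42, adjusted p = 0.996 among the 63 genes). Microglial genes were above 0 in 18 of 25 and astrocyte genes in 8 of 22, with 0 called in either list. Splits were also uneven for endothelial and mural genes (5 of 17 above 0) and ribosomal protein genes (20 of 31). Other uneven lists included outer mitochondrial membrane and apoptosis genes (7 of 21 above 0) and markers of excitatory neurons and hippocampal fields (7 of 20). The microglial and astrocyte lists had median ratios of 0.833 and 0.885, so these signs rest on counts near the lowest value and show no shift of cell types. Gfap, Cdkn1a and Bdnf each stood at 0.833 times the negative probe. At this depth a change in these genes was not detectable.

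The same 63 genes were followed in the other groups. The DC regimen, which shares doxorubicin and also shares the 8 vehicle libraries with the DD comparison, had 4 genes called against vehicle (6.35%), all lower. They were Txlnb, Mtch2, Gm34733 and Ripply2, with log2 values of -1.44, -1.23, -0.90 and -0.76 after DC, beside -0.47, -0.79, -0.56 and -0.92 after DD. Set directly against DC, DD had 0 genes called in edgeR (0%), with 4 at an unadjusted p under 0.05, and DESeq2 also called 0. The smallest edgeR adjusted p was 0.0603, shared by Ppp1r9b and Txlnb. Ppp1r9b was lower after DD than after DC (log2 -1.32, SE 0.38). Against vehicle it stood at -0.58 after DD and 0.74 after DC, and neither passed. Its median counts in DD and vehicle libraries lay near the lowest value of 1. Txlnb averaged 11.3 ± 2.01 normalised counts after DD and 5.72 ± 3.53 after DC (SD, n = 8 each), a log2 difference of 0.97 (SE 0.30). Ripply2 averaged 27.0 ± 6.85 after DD and 30.3 ± 10.1 after DC (SD, n = 8 each), a log2 difference of -0.16 (SE 0.25, edgeR adjusted p = 0.992).

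In APOE4 hippocampus, DD against vehicle gave 1 call among the 63 genes (1.59%), Mplkip, a gene mutated in a nonphotosensitive form of trichothiodystrophy in humans, at a log2 value of -2.74 (SE 0.51, edgeR adjusted p = 9.29e-05). Whether this call rests on few APOE4 libraries was not tested. In APOE3 hippocampus Mplkip stood at -0.13 (SE 0.86) from median counts of 3 and 2.5. Ripply2 averaged 23.9 ± 4.46 after DD and 31.3 ± 8.15 with vehicle in APOE4 hippocampus (SD, n = 8 each), a log2 fold change of -0.38 (SE 0.21, adjusted p = 0.476). The test of the difference in DD effect between APOE3 and APOE4 called 0 genes in edgeR (0%) and in DESeq2, with 5 at an unadjusted p under 0.05 and a smallest adjusted p of 0.491. For Mplkip that difference was 2.61 (SE 1.03, edgeR adjusted p = 0.491), so its call in APOE4 was not shown to be particular to that genotype. For Ripply2 the difference was -0.54 (SE 0.31). All APOE3 libraries were on one collection plate and all APOE4 libraries on another, so levels of genotype and plate cannot be told apart.

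In APOE3 cortex, DD against vehicle gave 2 calls among these genes (3.17%), both lower: Ripply2 at a log2 value of -0.91 (SE 0.24, edgeR adjusted p = 0.0119) and Mtch2 at -0.86 (SE 0.23, adjusted p = 0.0119). The corresponding hippocampal values, from the fit to the 48 hippocampus libraries, were -0.92 and -0.79. The cortex values and the differences below come from a separate fit to 33 APOE3 libraries of both regions, with its own scaling. They therefore do not equal the gaps between the printed hippocampal and cortical values. The labels do not say which cortex and hippocampus regions came from the same mouse, so the fit could not block on it. The test of the difference in DD effect between hippocampus and cortex called 0 genes in edgeR (0%) and in DESeq2, with 2 at an unadjusted p under 0.05 and a smallest adjusted p of 0.914. For Ripply2 the difference was -0.17 (SE 0.34) and for Mtch2 0.026 (SE 0.33). Inhbb, at 0.66 in the fit to the hippocampus libraries, stood at -0.33 (SE 0.31) in cortex. Its difference in the fit to both regions was 0.76 (SE 0.42, edgeR adjusted p = 0.914) and did not pass either.

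**Figure D4:**
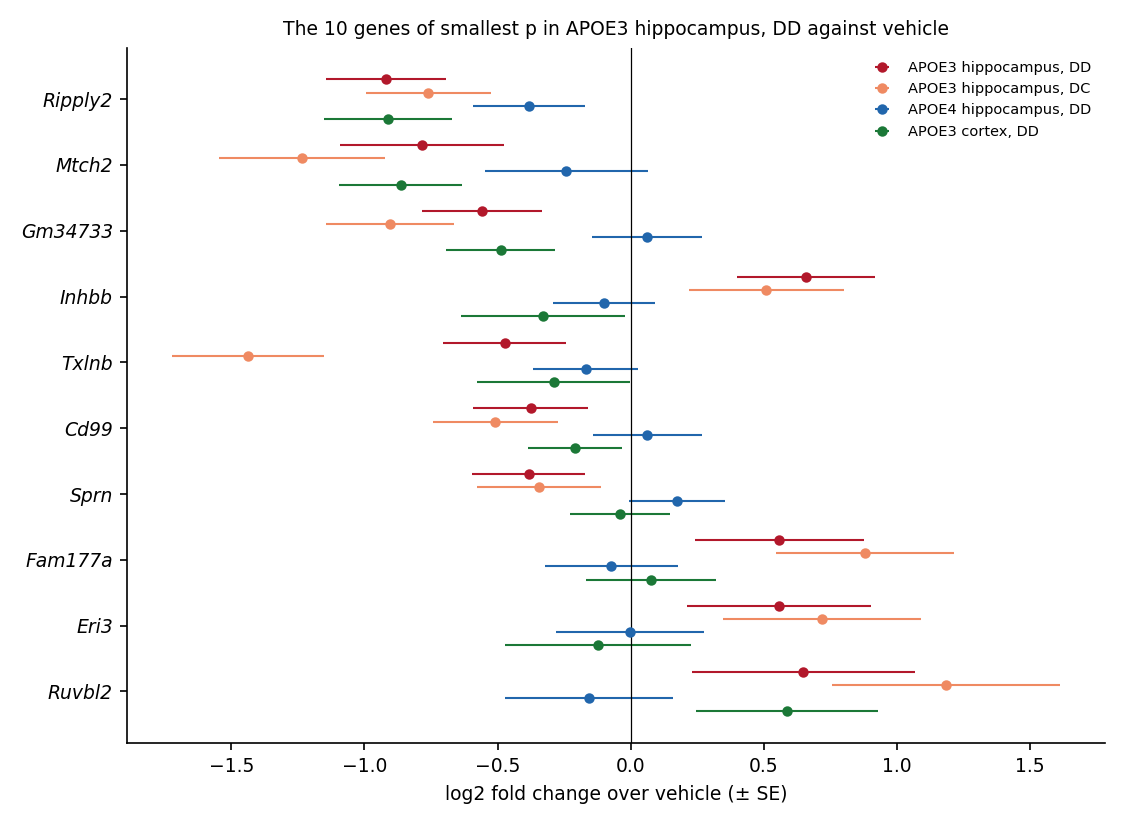
Log2 fold change over vehicle with its standard error for the 10 genes of smallest p after DD in APOE3 hippocampus, shown for DD and DC in APOE3 hippocampus, DD in APOE4 hippocampus and DD in APOE3 cortex. Both APOE3 hippocampus series share their vehicle libraries; Ripply2 stands at -0.92, -0.76, -0.38 and -0.91 in that order.

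Whether Ripply2 passed the threshold depended on how libraries were handled. Ripply2 stayed below 0 in all 37 alternative analyses, at log2 values from -1.14 to -0.65, and passed the threshold in 28 of them. It passed in 15 of the 16 analyses that left out a single library. DESeq2 gave -0.90 (adjusted p = 0.0135). With runs of wells as a random block, the value was -0.85 (limma, adjusted p = 0.0543).

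**Figure D5:**
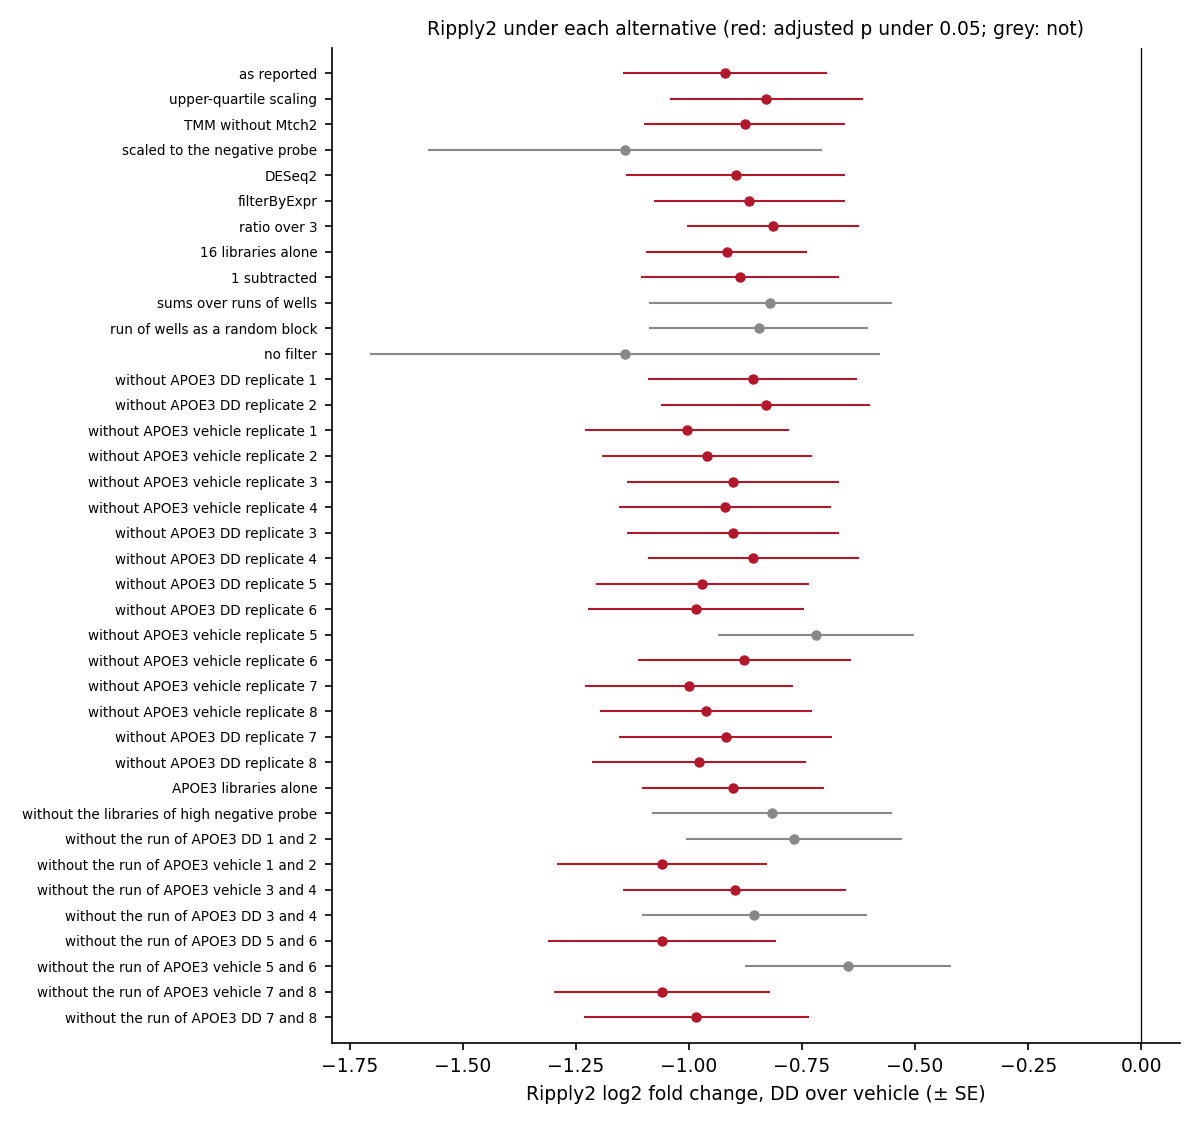
Ripply2 log2 fold change, DD over vehicle, with its standard error as reported and under 37 alternatives; red marks an adjusted p under 0.05. Every value lies below 0, and 28 of the 37 alternatives pass.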

How the data were processed

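The authors' deposited table gives, for each probe target, expected counts that were not adjusted for depth; the lowest value is 1. All but 4 rows, none of them a gene described here, are whole numbers, and values were rounded before modelling. No source used here gives the counting software. The submitters' processing notes name the mm10 build; positions and promoters come from RefSeq's GRCm38.p6, in which 62 of the 63 genes were found.

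Groups follow the labels, and all 97 libraries carry the same batch label. The 16 libraries held 0 identical pairs. A run of wells is a set of libraries of a group that follow each other in the plate's order of wells among the libraries analysed; each of the DD and vehicle hippocampus runs held 2, in wells that need not touch. Genes had a median ratio to the negative probe over 2 in the 16 libraries. edgeR 4.0.16 (R 4.3.3) was fitted to the 63 genes in all 6 hippocampus groups (48 libraries) with TMM scaling and its quasi-likelihood test, and p-values were adjusted by Benjamini-Hochberg with a threshold of 0.05. The cortex comparison and the region difference used a separate fit to 33 APOE3 libraries of both regions. Standard errors come from the F statistic. Normalised counts are scaled to the median effective library size of the 16 libraries. Library measures were tested by exact permutation, two-sided, over all 12870 assignments. limma 3.58.1 and DESeq2 1.42.0 served as alternatives. The fitting code was tested on simulated data.

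Genes named are those called, the 10 smallest p in each direction, the 15 of highest ratio, the genes at the limit and up to 4 members of a list; Marcks, Rps26, Vmn1r189, Prox1, Gfap, Cdkn1a, Bdnf, Mplkip and the other mitochondrial genes were added after their values were seen. A further gene that the rule names is not reported here; counts of genes include it. Members, lists and role groups were chosen with earlier results of these data known, and the role groups and motifs after values were seen.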

Additional observations from a re-analysis of the deposited data

Results flagged for a closer look

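Of 62 groups of 8 libraries examined, 9 held a library whose gap to the nearest other exceeded the 95% limit of Dixon's test; chance gives about 1 in 20. Vehicle library 5 stood high in 4 of them, with normalised counts of 103.1 for Ripply2 (25.7 to 60.0 in the others), 3612 for Mtch2 (1267 to 2070) and 24.55 for Etd (2.63 to 9.88), and a Mtch2 share of 71.49%. Vehicle library 1 stood apart for Fth1 at 7.907 (0.807 to 3.59 in the others), for Xrn1 at 17.79 (40.6 to 57.6) and for Ctxn1 at 11.86 (16.2 to 20.01). Vehicle library 2 stood high for Ppp1r9b at 10.77 (1.64 to 5.93). The other was DD library 6, with 3569 summed counts over the 63 genes. Without vehicle library 5, Ripply2 had a log2 fold change of -0.72 (edgeR adjusted p = 0.0997).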

How the results depend on the processing

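The count of genes called, 1 as reported, was 3 with the 16 libraries fitted alone (Ripply2, Mtch2 and Gm34733). It was 0 with scaling to the negative probe (Ripply2 log2 -1.14, edgeR adjusted p = 0.556), sums over runs of wells (-0.82, 0.306), the run as a random block in limma (-0.85, 0.0543) and no filter (-1.14, 0.990). It was also 0 without the 3 DD libraries of high negative probe (-0.82, 0.209), without the runs of DD libraries 1 and 2 (-0.77, 0.142) or 3 and 4 (-0.86, 0.0703), and without the run of vehicle libraries 5 and 6 (-0.65, 0.384); leaving out runs or these 3 libraries, the fit to the APOE3 hippocampus libraries alone and the division by summed counts were chosen after seeing the data. Leaving out 1 library gave 0 to 1 calls, 0 only without vehicle library 5 (-0.72, 0.0997). The cause was not tested; the fits over runs and without libraries have fewer units. Scaling to the negative probe put the median of the 63 genes at -0.21, against 0.041 with TMM. Ripply2 kept its sign in all 37 alternatives, and of the 29 genes with the smallest p or the highest ratios, 8 turned sign in at least 1, all of them uncalled; the other genes named were not followed for sign. The summed counts of the 63 genes gave ratios of 0.658 to 0.810 when 1 library was left out; without vehicle library 1 the ratio of 0.658 had an exact permutation p of 0.0326. Divided by those counts, the negative probe was 1.54-fold higher after DD (exact permutation p = 0.0305). The Mtch2 share differed by -11.4 percentage points over runs (exact permutation p = 0.0857). The 3 tests of differences (DD against DC, APOE3 against APOE4, hippocampus against cortex) gave 0 calls in every alternative run. No paired analysis was possible because the labels give no replicate numbers that link DD and vehicle libraries.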
